A study of Mus musculus with 4 samples.

Results

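Genes for secreted blood-clotting chains and for bladder surface proteins were followed through single mammary epithelial cells of tumor-prone mice. They are *Fgb* and *Fgg*, which encode the beta and gamma chains of fibrinogen, and *Upk3a* and *Upk2*, which encode uroplakin 3A and uroplakin 2. These 4 genes, of 31781 with a row in any library, were chosen by their UMI counts, which earlier summaries had shown to be high in Mature Luminal cells and different between the libraries, so their levels by class and library are given as a description and without a test.

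The mice carried MMTV-PyMT, a transgene in which the mouse mammary tumor virus promoter drives polyoma middle T antigen in mammary epithelium. One genotype was labelled PKA activated (protein kinase A, the kinase that cAMP switches on) and the other wild type (WT), and the labels list no treatment for either. No source used here gives the strain, how PKA was activated or how many mice made up a library. The 4 groups, each with 1 library, were PKA tumor, WT tumor, PKA hyperplasia and WT hyperplasia. All 4 carried the PyMT transgene. Hyperplastic glands came from mice of 8 to 9 weeks, whereas tumors came at 16 to 20 weeks by the sample labels, or 22 weeks by the series design. Annotated cells numbered 2638 in PKA tumor, 5181 in WT tumor, 3818 in PKA hyperplasia and 3808 in WT hyperplasia, with medians of 5890.5, 4391, 2557 and 2637.5 unique molecular identifiers (UMIs, each counted as 1 captured RNA molecule) per cell in that order. Between 16 and 24 cell barcodes were shared by any pair of libraries. Because there was 1 library per group, every interval below is a 95% interval of counting error and compares libraries, not conditions.

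Fibrinogen is assembled from alpha, beta and gamma chains and is cleaved by thrombin to form fibrin clots. Hepatocytes make nearly all of it, under liver transcription factors and, in the acute phase response, interleukin-6 and STAT3. Uroplakins are membrane proteins of the bladder lining, where uroplakin 2 pairs with uroplakin 1A and uroplakin 3A pairs with uroplakin 1B to build stiff plaques on umbrella cells. Mature luminal cells are the hormone-sensing cells of the mammary duct and carry estrogen, progesterone and prolactin receptors.

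*Fgg* and *Fgb* lie on mouse chromosome 3 of GRCm38, *Fgg* on the plus strand at chr3:83007724-83015049 and *Fgb* on the minus strand at chr3:83040141-83049863, with 25092 bases between them. The alpha chain gene *Fga* lies between them and was not analysed here. *Upk2* is on the minus strand at chr9:44452715-44454976 and *Upk3a* on the plus strand at chr15:85017141-85022547. The 250 bases before the RefSeq start (GRCm38.p6) are shown for *Fgb*, *Fgg* and *Upk3a*, the 3 members with an entry. Capitals mark CTGGGAA, the core of the interleukin-6 response element known from fibrinogen genes, ATTAAC, a part of the HNF1 site, and TTGCNNAA, a C/EBP core.
Fgb, chr3:83049864-83050113, minus strand: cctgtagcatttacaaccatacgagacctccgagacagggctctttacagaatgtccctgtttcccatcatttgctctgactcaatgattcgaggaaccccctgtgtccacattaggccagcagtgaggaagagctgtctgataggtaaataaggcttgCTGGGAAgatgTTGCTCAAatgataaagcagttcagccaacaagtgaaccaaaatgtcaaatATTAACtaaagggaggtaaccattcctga
Fgg, chr3:83007474-83007723, plus strand: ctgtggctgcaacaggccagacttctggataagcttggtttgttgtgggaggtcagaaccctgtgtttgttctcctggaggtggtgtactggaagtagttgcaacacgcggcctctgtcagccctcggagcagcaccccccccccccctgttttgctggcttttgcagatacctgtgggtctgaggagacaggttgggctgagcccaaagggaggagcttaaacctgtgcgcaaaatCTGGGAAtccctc
Upk3a, chr15:85016891-85017140, plus strand: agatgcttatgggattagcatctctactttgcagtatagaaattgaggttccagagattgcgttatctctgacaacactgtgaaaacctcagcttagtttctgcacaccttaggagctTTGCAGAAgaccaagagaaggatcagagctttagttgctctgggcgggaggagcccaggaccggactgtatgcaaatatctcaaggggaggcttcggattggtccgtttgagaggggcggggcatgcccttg

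In all, 6 motifs were searched on both strands of these windows. CTGGGAA stood at -91 to -85 before the *Fgb* start and at -13 to -7 before the *Fgg* start, and was held by 9.10% of 32851 RefSeq promoter windows of the same length. ATTAAC stood at -29 to -24 before *Fgb* (6.43% of windows). TTGCNNAA stood at -80 to -73 before *Fgb* and at -132 to -125 before *Upk3a* (9.56% of windows), and the matches did not overlap each other. The nuclear receptor core AGGTCA stood at -201 to -196 before *Fgg* (14.0% of windows). The forkhead core GTAAAC (6.92%) and the cAMP response element core TGACG (17.8%) had no match in these 3 windows. A match is a string of letters and not a measured binding site.

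In all 3 libraries where the members had more than a few UMIs, they were counted mainly in the cells that the authors' annotation calls Mature Luminal. That class held 177 cells in PKA tumor, 872 in WT tumor, 251 in PKA hyperplasia and 116 in WT hyperplasia. The 5 genes named for it in the series design (*Pgr*, *Prlr*, *Foxa1*, *Gpx3* and *Esr1*) all had UMIs in it in each library, and summed to 3688, 4307, 5838 and 5545 CPM (UMIs scaled to a class total of 1000000) in that order. The 3 genes named for Lumino-Basal cells (*Krt14*, *Krt8* and *Cd14*) summed to 3435, 4563, 2206 and 1585 CPM in the same Mature Luminal cells, above the class's own markers in WT tumor, and nearly all of it was the luminal keratin gene *Krt8* (3269, 4410, 2089 and 1450 CPM).

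*Fgb* reached 1356 CPM in Mature Luminal cells of PKA tumor, 1895 CPM in WT tumor, 400 CPM in PKA hyperplasia and 20.8 CPM in WT hyperplasia, from 1943, 9251, 304 and 8 UMIs. *Fgg* reached 1735, 1080, 362 and 28.6 CPM in the same order, from 2485, 5273, 275 and 11 UMIs. *Upk3a* reached 184, 1753, 214 and 2.60 CPM, the last from 1 UMI. Both fibrinogen chains were thus highest in the tumors and lowest in WT hyperplasia, while *Upk3a* was high in WT tumor only and at like levels in PKA tumor and PKA hyperplasia, whose counting intervals (163 to 208 CPM and 183 to 250 CPM) overlapped. *Upk2* had another order and was highest in PKA hyperplasia, with 64.2 CPM in PKA tumor, 85.0 CPM in WT tumor, 151 CPM in PKA hyperplasia and 5.21 CPM in WT hyperplasia, from 92, 415, 115 and 2 UMIs.

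**Figure D1:**
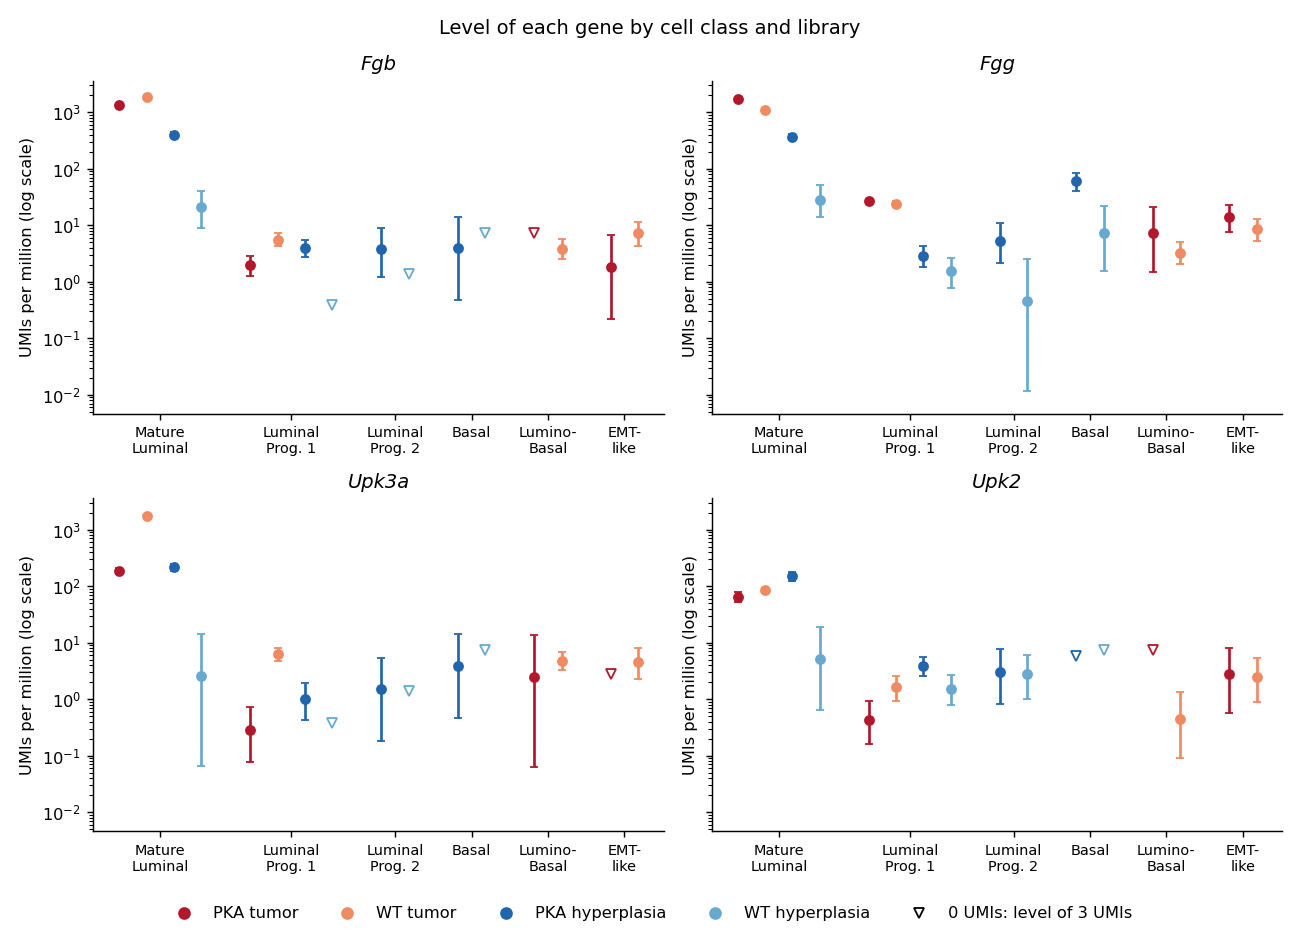
CPM (log axis) of the 4 genes in each annotated class of each library, with exact Poisson 95% intervals of counting error; open triangles mark a class with 0 UMIs at the level of 3 UMIs. The points of Mature Luminal cells stand above all other classes in 3 libraries, as for *Fgb* whose CPM were 1356 in PKA tumor, 1895 in WT tumor and 400 in PKA hyperplasia.

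The Mature Luminal class held 98.5% of *Fgb* UMIs in PKA tumor and 98.9% in WT tumor, although it made up only 6.71% and 16.8% of annotated cells. For *Upk3a* it held 98.1% in PKA tumor and 98.8% in WT tumor, and for *Upk2* 91.1% and 94.1%. *Fgg* was less confined, with 86.6% in PKA tumor and 94.7% in WT tumor. In PKA hyperplasia the class held 88.6% of *Fgb*, 81.8% of *Fgg*, 93.1% of *Upk3a* and 76.7% of *Upk2* UMIs. In WT hyperplasia it held all 8 *Fgb* UMIs but 11 of 27 *Fgg* and 2 of 20 *Upk2* UMIs. Most of the few *Upk2* UMIs there, 12, came from Luminal Progenitor 1 cells, at 1.53 CPM.

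Free RNA in droplets can leave UMIs in cells that do not express a gene, so Mature Luminal cells were set beside Luminal Progenitor 1 cells, the largest class in every library. This was done without thinning, so the depths of the classes differ. *Fgb* had a UMI in 36.2% of Mature Luminal cells of PKA tumor (median depth 8362 UMIs) and in 1.21% of Luminal Progenitor 1 cells (median depth 5970 UMIs). In WT tumor these shares were 41.6% (5492 UMIs) and 2.43% (4143 UMIs). *Upk3a* had a UMI in 4 of 2157 Luminal Progenitor 1 cells of PKA tumor, 56 of 2343 of WT tumor and 5 of 2885 of PKA hyperplasia. *Upk2* had a UMI in 6, 17 and 29 of these cells. The thinned shares that follow are of Mature Luminal cells only. With each cell thinned to 2000 UMIs, *Fgb* was found in 27.9% of Mature Luminal cells of PKA tumor, 34.0% of WT tumor, 32.2% of PKA hyperplasia and 5.68% of WT hyperplasia, and *Fgg* in 47.7%, 45.9%, 22.4% and 6.82%. *Upk3a* was found in 11.6%, 28.8% and 14.4% of the thinned cells of PKA tumor, WT tumor and PKA hyperplasia, and in 0 of 88 cells of WT hyperplasia, whose exact interval reaches up to 4.11%. *Upk2* was found in 8.72%, 14.3%, 23.6% and 1.14%. Thinning left out 5, 27, 77 and 28 Mature Luminal cells that had fewer than 2000 UMIs.

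Outside the Mature Luminal class, *Fgg* was counted without a matching amount of *Fgb* in some classes. Luminal Progenitor 1 cells had 367 *Fgg* UMIs in PKA tumor (26.5 CPM, 4.68% of cells) and 251 in WT tumor (23.9 CPM, 4.14% of cells), and Basal cells of PKA hyperplasia had 31 (60.4 CPM, 7.89% of cells). The ratio of *Fgb* to *Fgg* UMIs was 0.0736 (95% interval 0.0478 to 0.109) in Luminal Progenitor 1 cells and 0.782 (0.736 to 0.830) in Mature Luminal cells of PKA tumor. It was 0.235 (0.174 to 0.313) and 1.75 (1.70 to 1.82) in the same classes of WT tumor, and 0.0645 (0.00748 to 0.254) in Basal cells beside 1.11 (0.936 to 1.31) in Mature Luminal cells of PKA hyperplasia. The ratio differed between these classes of a library by more than counting error. EMT-like cells also had a lower ratio than Mature Luminal cells, 0.133 (0.0148 to 0.573) in PKA tumor and 0.857 (0.431 to 1.69) in WT tumor. These ratios rest on few UMIs, 2 of *Fgb* and 15 of *Fgg* in PKA tumor and 18 and 21 in WT tumor. In the other annotated classes the interval of the ratio overlapped that of the library's Mature Luminal cells. Examples were Luminal Progenitor 1 cells (1.39, 0.789 to 2.49) and Luminal Progenitor 2 cells (0.714, 0.179 to 2.61) of PKA hyperplasia and Lumino-Basal cells of WT tumor (1.18, 0.644 to 2.19).

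A handful of progenitor cells held much of that *Fgg*. In PKA tumor, 9 Luminal Progenitor 1 cells with at least 10 *Fgg* UMIs held 205 of the 367 UMIs and had no *Fgb* UMI. Their summed level of the 5 Mature Luminal markers was 44.7 CPM, against 93.9 CPM in the other Luminal Progenitor 1 cells and 3688 CPM in Mature Luminal cells, and their summed level of the progenitor markers *Cd14*, *Kit* and *Lalba* was 10472 CPM, against 4997 CPM in the other Luminal Progenitor 1 cells. In WT tumor, 6 such cells held 93 of 251 *Fgg* UMIs, with 862 CPM of Mature Luminal markers and 886 CPM of progenitor markers. The other Luminal Progenitor 1 cells of WT tumor had 98.2 and 2121 CPM of these sets. The *Fgg*-rich progenitor cells of PKA tumor were therefore low in Mature Luminal markers, with 4 UMIs in all, like the rest of their class. Those of WT tumor carried both sets, with more Mature Luminal and less progenitor marker RNA than the rest of their class. These cells were deeper than the rest of their class, with median depths of 8939 against 5959 UMIs in PKA tumor and 6924 against 4141 UMIs in WT tumor. The cut at 10 UMIs was not scaled to depth, so deeper cells pass it more easily. Doublets were not removed, and whether any of these cells were doublets was not tested. This cell group was picked after its values were seen.

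Between the tumors, all 4 members had lower levels in the PKA library when all annotated cells were summed. *Upk3a* had 16.1 CPM in PKA tumor, against 354 CPM in WT tumor, which was 22.0-fold lower (log2 ratio -4.46, 95% interval -4.64 to -4.29). *Fgb* had 118 CPM in PKA tumor, against 382 CPM in WT tumor (log2 ratio -1.70, -1.77 to -1.63), and *Upk2* 6.03 and 18.0 CPM (-1.58, -1.91 to -1.26). *Fgg* was closest, with 171 CPM in PKA tumor, against 227 CPM in WT tumor (-0.41, -0.47 to -0.34). So 3 members were at least 2-fold lower in PKA tumor, where 7.48% of 20146 genes were, and none was 2-fold higher, where 9.23% were. The members were chosen with this contrast in view, so nothing is read from their count.

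Fewer Mature Luminal cells and less RNA per cell cannot be told apart in such sums, and the class made up 6.71% of cells in PKA tumor and 16.8% in WT tumor. Within Mature Luminal cells the picture changed for all members but *Upk3a*. *Upk3a* was still 9.51-fold lower in PKA tumor (log2 ratio -3.25, -3.43 to -3.07), the 62nd lowest of 14131 genes, whereas *Fgb* was 1.40-fold lower (-0.48, -0.55 to -0.41) and *Upk2* 1.32-fold lower (-0.40, -0.75 to -0.08). *Fgg* was 1.61-fold higher in PKA tumor (0.68, 0.61 to 0.75), so its direction depended on whether all cells or Mature Luminal cells were summed. Giving each class the same weight in place of each UMI turned the *Fgg* ratio over all cells to 0.68 as well. In Mature Luminal cells 1 member was at least 2-fold lower, beside 5.16% of genes, and none was 2-fold higher, beside 11.7%. The median of all genes in that comparison was 0.12.

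Among hyperplastic glands all 4 members were higher in PKA hyperplasia, summed over all cells as well as within Mature Luminal cells. This was the opposite of the order in tumors, except for *Fgg* within Mature Luminal cells, and the comparison within the class was added after the data were seen. In Mature Luminal cells *Fgb* was 19.2-fold higher in PKA hyperplasia than in WT hyperplasia (log2 ratio 4.26, 3.27 to 5.49) and *Fgg* 12.6-fold higher (3.66, 2.80 to 4.68). *Upk3a* had 163 UMIs in PKA hyperplasia and 1 in WT hyperplasia (log2 ratio 6.36, 3.87 to 11.68), and *Upk2* had 115 and 2 (4.86, 2.97 to 7.92), so the size of both ratios rests on 1 or 2 UMIs. The 4 members stood 18th, 37th, 2nd and 11th from the highest of 9092 genes in the order *Fgb*, *Fgg*, *Upk3a* and *Upk2*. At least 2-fold higher were 4 of 4 members, beside 7.40% of genes within the class, and none was 2-fold lower, beside 7.36%. Over all cells the log2 ratios were 5.44 for *Fgb*, 3.66 for *Fgg*, 7.47 for *Upk3a* and 2.93 for *Upk2*, again 4 of 4 beside 4.33% of 16671 genes, with none lower beside 4.23%.

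Lineage markers were counted in WT hyperplasia, where the members were low. Mature Luminal cells there had 133 CPM of *Pgr*, 2580 CPM of *Prlr* and 2549 CPM of *Gpx3*, while those of PKA hyperplasia had 129, 3695 and 1690 CPM. These cells were 116 in WT hyperplasia, so 3 UMIs already stand for 7.81 CPM. *Pgr*, *Prlr* and *Gpx3* are among the genes named for the class, so cells annotated to it are likely to carry them. Nothing is read from their presence.

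**Figure D2:**
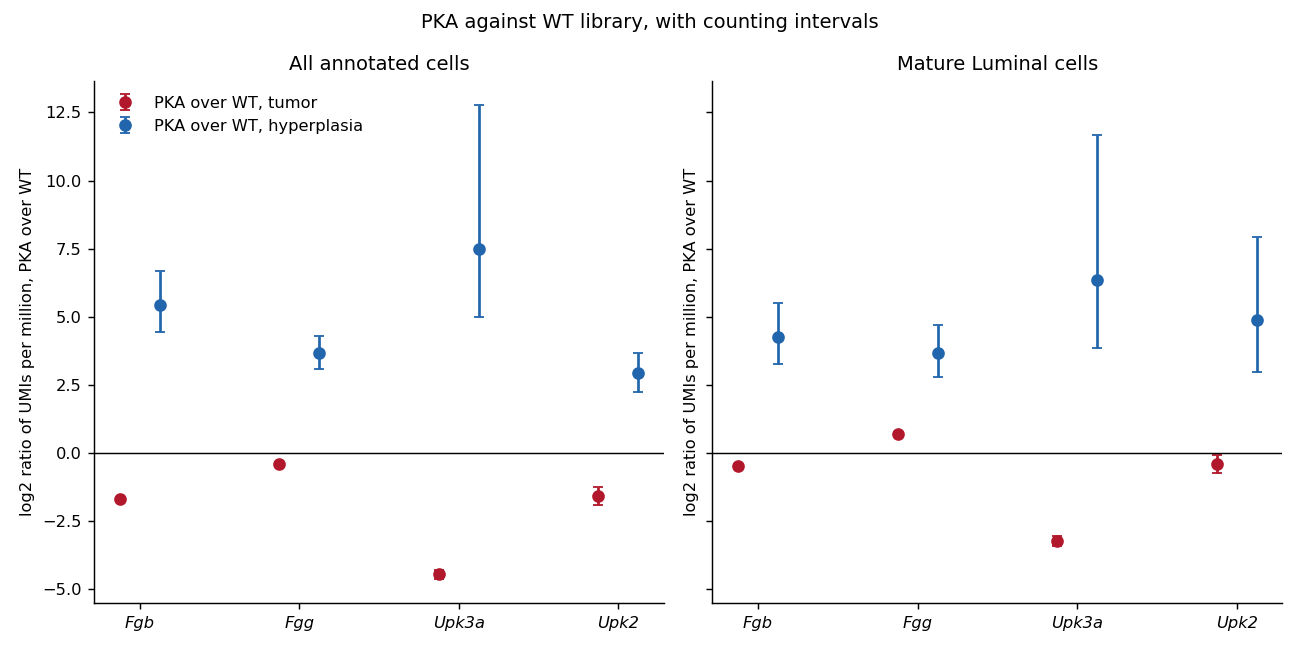
Log2 ratio of CPM, PKA over WT, for each gene in tumor (red) and hyperplasia (blue), over all annotated cells (left) and Mature Luminal cells (right); bars are exact 95% intervals of counting error for 1 library per group. In Mature Luminal cells the tumor ratios run from -3.25 for *Upk3a* to 0.68 for *Fgg*, and all hyperplasia ratios lie above 0.

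Stage was compared within each genotype, although tumors and glands also differed in the age of the mice and in dissociation (glands had an added trypsin and dispase step), which cannot be told apart from stage. In WT mice every member was higher in tumor than in hyperplasia. Within Mature Luminal cells *Fgb* was 91.0-fold higher (log2 ratio 6.51, 5.53 to 7.72), *Fgg* 37.7-fold higher (5.24, 4.40 to 6.24), *Upk3a* had 8558 UMIs against 1 (9.40, 6.92 to 14.70) and *Upk2* 415 against 2 (4.03, 2.17 to 7.08). All 4 were past 2-fold, beside 19.9% of 13435 genes, and over all cells also 4 of 4, beside 28.7%. *Upk3a* had the highest ratio of 19402 genes over all cells, with 354 CPM in WT tumor and 0.0926 CPM in WT hyperplasia. Since the members were chosen for differences between libraries, nothing is read from these counts and ranks, or from the counts in PKA mice below.

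In PKA mice, where the members were already counted in hyperplasia, the stages split the fibrinogen chains from the uroplakins. Within Mature Luminal cells *Fgb* was 3.39-fold higher in PKA tumor than in PKA hyperplasia (log2 ratio 1.76, 1.59 to 1.94) and *Fgg* 4.80-fold higher (2.26, 2.08 to 2.45). *Upk3a* gave -0.22 (-0.51 to 0.07), an interval that covers 0, and *Upk2* was 2.35-fold lower (-1.24, -1.65 to -0.83). Past 2-fold higher were 2 members, beside 19.8% of 11452 genes, and 1 past 2-fold lower, beside 8.15%. Over all cells the values were 1.87, 2.44, -0.03 and -1.22 in the order *Fgb*, *Fgg*, *Upk3a*, *Upk2*, with the same 2 of 4 members higher, beside 27.8%, and 1 lower, beside 10.3%.

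Within the Mature Luminal class the members were very uneven from cell to cell. In WT tumor the 87 cells richest in each gene, of 872, held 74.4% of *Fgb*, 56.6% of *Fgg*, 78.4% of *Upk3a* and 59.0% of *Upk2* UMIs. In PKA tumor the 18 richest of 177 cells held 79.5% of *Fgb*, 66.9% of *Fgg*, 96.2% of *Upk3a* and 58.7% of *Upk2* UMIs. Some cells were full of these transcripts: the highest single cell had 200 *Fgb* UMIs in PKA tumor and 370 in WT tumor, and 225 and 167 *Fgg* UMIs. *Upk2* never passed 7 UMIs in a Mature Luminal cell. At least 10 UMIs of *Upk3a* were found in 8 cells of PKA tumor (4.52%) and 154 of WT tumor (17.7%), and at least 10 UMIs of *Fgb* in 33 (18.6%) and 179 (20.5%).

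The lower *Upk3a* of PKA tumor thus came with both fewer positive cells and fewer UMIs in them. *Upk3a* was found in 25 of 177 Mature Luminal cells of PKA tumor with a median of 5 UMIs, against 327 of 872 cells of WT tumor with a median of 8 UMIs. *Fgg* was found in 110 cells of PKA tumor with a median of 9 UMIs and in 506 cells of WT tumor with a median of 5 UMIs. *Fgb* had medians of 10.5 and 9 UMIs in 64 and 363 positive cells. Counts per cell in this paragraph and the one before were not scaled to depth. Mature Luminal cells had a median depth of 8362 UMIs in PKA tumor and 5492 in WT tumor. The higher medians of *Fgg* and *Fgb* in PKA tumor therefore do not by themselves separate level from depth. In CPM summed over the class, *Fgg* was 1.61-fold higher and *Fgb* 1.40-fold lower in PKA tumor.

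Cells with 1 member often had another, but *Upk2* stood apart. The comparison sets the number of cells with both genes beside the product of their separate shares, after thinning each Mature Luminal cell to 2000 UMIs, which leaves 172 cells in PKA tumor, 845 in WT tumor and 174 in PKA hyperplasia. *Fgb* and *Fgg* were found together in 37 cells of PKA tumor, beside 22.9 from the product, in 203 of WT tumor, beside 131.8, and in 20 of PKA hyperplasia, beside 12.6. *Fgb* and *Upk3a* were together in 16, 127 and 15 cells of the same libraries, beside 5.58, 82.5 and 8.05, although their genes lie on different chromosomes. *Fgg* and *Upk3a* were together in 17, 146 and 11 cells, beside 9.53, 111.6 and 5.60. All 3 of these pairs exceeded the product in all 3 libraries at this depth. In the 61 cells of PKA hyperplasia that reach 4000 UMIs they were near it at that depth, with 8 cells beside 7.08 for *Fgb* and *Fgg*, 3 beside 2.66 for *Fgb* and *Upk3a*, and 3 beside 3.54 for *Fgg* and *Upk3a*, the last on the other side of the product.

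The uroplakins, in contrast, were seldom found together in the tumors. *Upk3a* and *Upk2* shared 1 cell in PKA tumor, beside 1.74 from the product, and 13 cells in WT tumor, beside 34.8. The WT tumor count is 1.54% of cells (exact interval 0.82 to 2.62%) and lies below the product, while the PKA tumor count is too small to tell. In WT tumor *Upk2* was found in 5.35% of cells with *Upk3a* and in 17.9% of cells without it. In PKA hyperplasia the same pair shared 8 cells beside 5.89, so it was not short there. *Fgg* and *Upk2* shared 4 cells in PKA tumor beside 7.15, 44 in WT tumor beside 55.6, and 12 in PKA hyperplasia beside 9.19. *Fgb* and *Upk2* were near the product, with 4 beside 4.19, 46 beside 41.1, and 16 beside 13.2. All 4 members were in 1, 5 and 6 cells of PKA tumor, WT tumor and PKA hyperplasia, and no member was in 40.1%, 29.7% and 41.4% of cells.

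**Figure D3:**
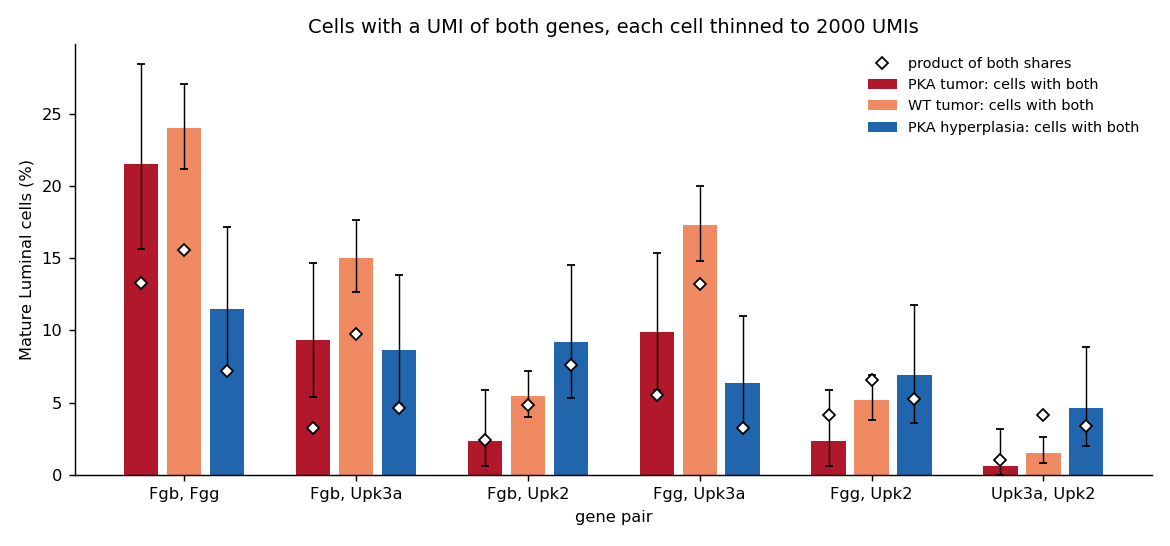
Bars give the share of Mature Luminal cells with a UMI of both genes after thinning to 2000 UMIs, with exact 95% intervals, in PKA tumor (172 cells), WT tumor (845) and PKA hyperplasia (174); diamonds give the product of the separate shares. Bars exceed the diamonds for *Fgb* with *Fgg* (21.5%, 24.0% and 11.5%) and stay below it for *Upk3a* with *Upk2* in WT tumor (1.54%).

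In the tumors and in PKA hyperplasia, cells with a member had a higher median depth than cells without it. The gap was slight for *Fgg* in WT tumor (5505 against 5475 UMIs). *Upk3a*-positive Mature Luminal cells had a median of 9214 UMIs in PKA tumor and 5587 in WT tumor, against 8216.5 and 5382 UMIs in the cells without it. *Upk2*-positive cells had 8512 and 5964 UMIs, against 8185.5 and 5235. *Fgb*-positive cells had 9147.5 and 5885 UMIs, against 7978 and 5213. In PKA hyperplasia the gap was 3578 against 2917 UMIs for *Upk3a*. In WT hyperplasia, with few positive cells, *Fgb* (2485 against 3209 UMIs) and *Upk3a* (2770 against 3209) went the other way. *Fgg* (3579 against 3146) and *Upk2* (4480 against 3177.5) did not. The part of depth in the unthinned counts was not tested, and all co-detection counts above come from thinned cells.

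**Figure D4:**
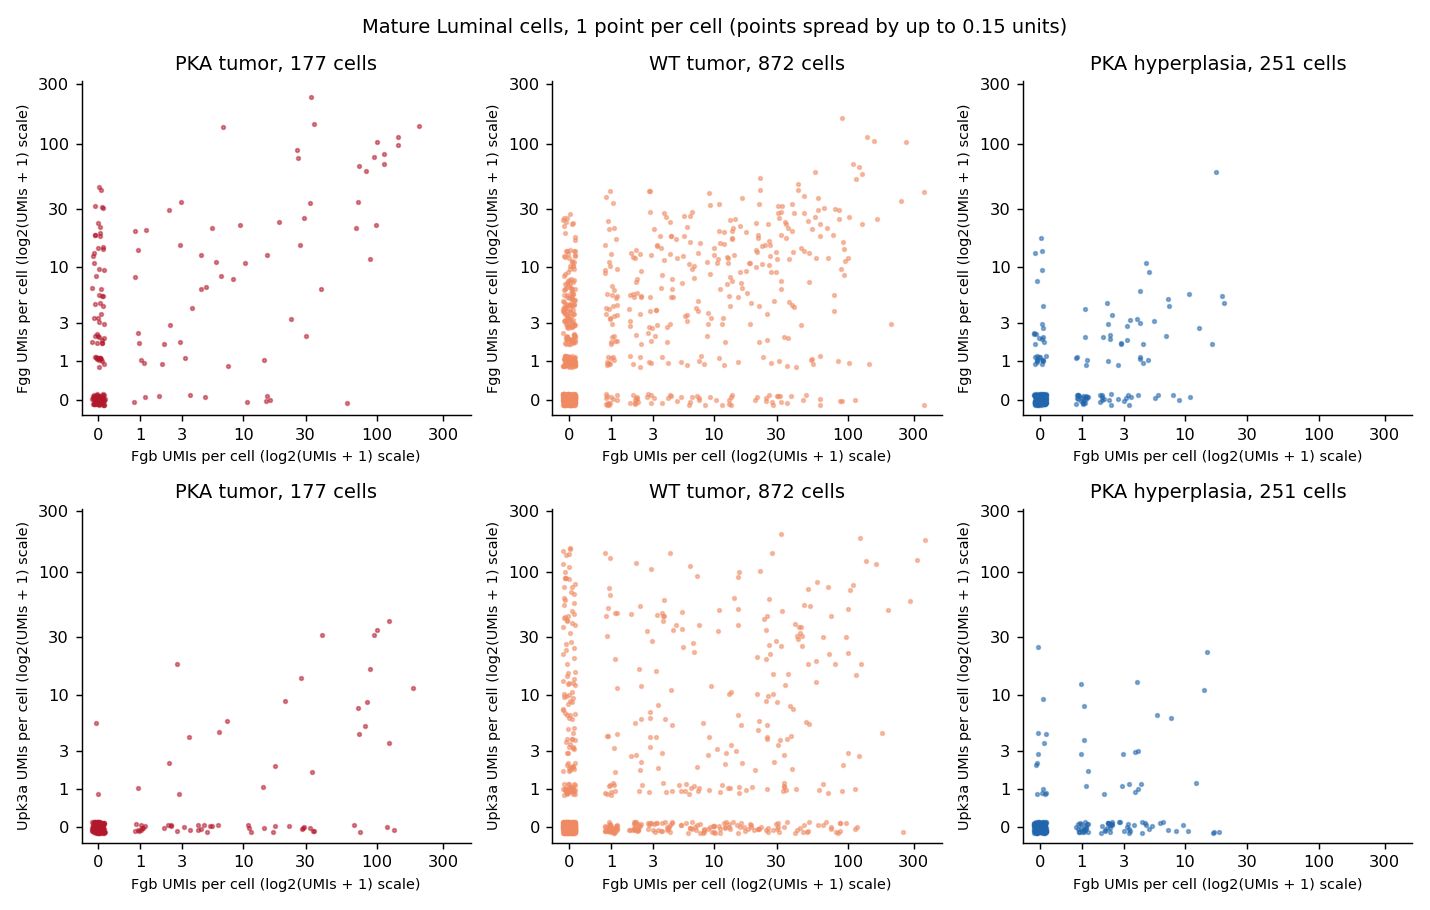
UMIs per Mature Luminal cell on a log2(UMIs + 1) scale, *Fgg* (top row) and *Upk3a* (bottom row) against *Fgb*, in PKA tumor (177 cells), WT tumor (872) and PKA hyperplasia (251). Cells rich in *Fgb* reach 200 UMIs in PKA tumor and 370 in WT tumor, and in PKA tumor nearly every cell with *Upk3a* also has *Fgb* (23 of 25).

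Correlations over Mature Luminal cells, on log2(counts per 10000 + 1), showed which other genes varied with each member. The cells of 1 library share its depth and preparation, so these are descriptions. Ranking used the 872 cells of WT tumor and 8731 genes found in at least 5% of them, and the same genes were then read in the 177 cells of PKA tumor. For *Fgb* the likest gene was *Fgg* (r = 0.53 in PKA tumor, 0.50 in WT tumor), followed by *Cited1*, a transcriptional co-regulator of estrogen-responsive mammary cells (0.53 and 0.50), *Upk3a* (0.59 and 0.33), the water channel gene *Aqp5* (0.46 and 0.30), *Crabp1*, which binds retinoic acid (0.46 and 0.29), *R3hdml* (0.51 and 0.29), *Steap1* (0.39 and 0.26), *Qsox1* (0.24 and 0.25), *1810010D01Rik* (0.29 and 0.24) and *Enho* (0.25 and 0.24). *Cited1* stood apart from the other 9 hormone lineage genes compared, whose r with *Fgb* ran between -0.18 (*Wnt4*) and 0.09 (*Foxa1*) in PKA tumor and between -0.13 (*Wnt4*) and 0.12 (*Foxa1*) in WT tumor.

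For *Fgg* the likest after *Fgb* was *Hp*, which encodes haptoglobin, another acute phase protein of liver (0.47 in PKA tumor, 0.35 in WT tumor). Then came *Cited1* (0.35 and 0.30), *Crabp1* (0.41 and 0.29), *Lrg1*, also an acute phase gene (0.47 and 0.29), *R3hdml* (0.59 and 0.28), the mucosal chemokine gene *Cxcl17* (0.61 and 0.26), *H2-K1* (0.36 and 0.26), *Upk3a* (0.42 and 0.26) and *Qsox1* (0.34 and 0.25). *Hp* and *Lrg1* were not among the 10 likest genes of *Fgb* or *Upk3a*.

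*Upk3a* was likest to *R3hdml* (0.46 in PKA tumor, 0.44 in WT tumor), the keratin gene *Krt4* (0.15 and 0.41), *Arl4c* (0.21 and 0.40), *Crabp1* (0.52 and 0.37), *Cxcl17* (0.28 and 0.36), the cyclin D1 gene *Ccnd1* (0.18 and 0.35), *Cited1* (0.48 and 0.35), *Fgb* (0.59 and 0.33), *Lbh* (0.13 and 0.33) and *Slc43a2* (0.0009 and 0.32). *Krt4* and *Slc43a2* were far lower in PKA tumor, where only 25 cells had *Upk3a*. Its lowest values in WT tumor were with *Glul*, the glutamine synthetase gene (-0.15 in PKA tumor, -0.40 in WT tumor), and *Prlr*, the prolactin receptor gene (-0.23 and -0.35).

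*Upk2* was likest to a set of genes on the other side: *Cxcl15* (0.28 in PKA tumor, 0.38 in WT tumor), *Gsta4* (0.26 and 0.38), *Prlr* (0.29 and 0.37), *Glul* (0.36 and 0.37), the tetraspanin gene *Tspan1* (0.37 and 0.35), *Tapt1* (0.29 and 0.35), *Tmsb4x* (0.20 and 0.32), *Col8a1* (0.42 and 0.31), *Cd164* (0.24 and 0.30) and *Prom1*, a surface marker of hormone-sensing luminal cells in mouse (0.33 and 0.29). *Glul*, *Prlr*, *Tspan1* and *Cxcl15*, among the 5 likest of *Upk2*, were the 4 genes least like *Upk3a* in WT tumor. The r of *Upk2* with *Upk3a* itself was -0.12 in PKA tumor and -0.22 in WT tumor.

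All 10 likest genes of each member had r above 0 in PKA tumor, where 55.6%, 51.2%, 53.1% and 49.2% of all genes compared had r above 0 with *Fgb*, *Fgg*, *Upk3a* and *Upk2*. In the 251 cells of PKA hyperplasia 8, 10, 8 and 10 of the 10 were above 0, beside 53.2%, 54.6%, 46.4% and 52.4% of all genes, with values up to 0.46 (*Fgb* with *Fgg*).

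**Figure D5:**
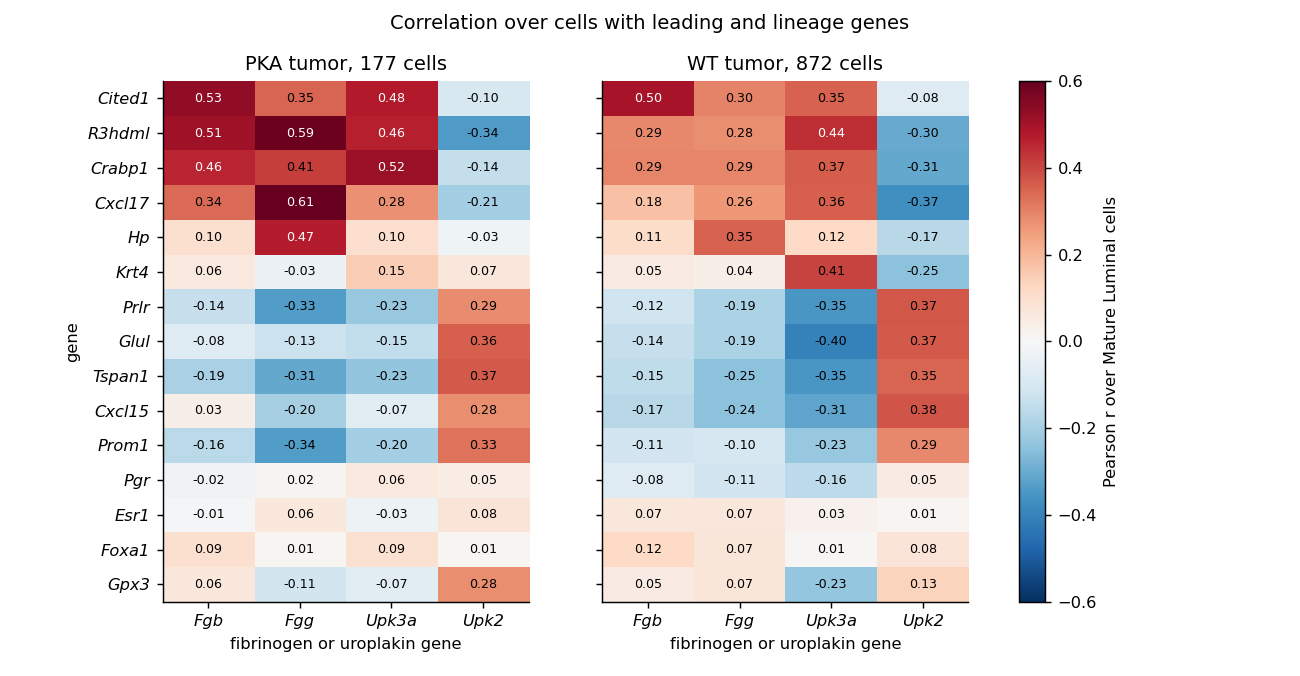
Pearson r over Mature Luminal cells of PKA tumor (177 cells, left) and WT tumor (872 cells, right) between the 4 genes and 15 others, namely likest genes and lineage markers picked after their values were seen. *Cited1* is positive with *Fgb*, *Fgg* and *Upk3a* (0.53, 0.35 and 0.48 in PKA tumor) and *Prlr* is positive with *Upk2* alone (0.29 in PKA tumor, 0.37 in WT tumor).

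Levels of the hormone lineage genes in cells with and without the members went different ways by gene. *Cited1*, already picked for its r in the same cells, was high with both. In PKA tumor it stood at 2383 CPM in the 23 Mature Luminal cells with both *Fgb* and *Upk3a*, against 241 CPM in the 111 cells with neither. In WT tumor it stood at 3116 CPM in 203 cells with both, against 515 CPM in 385 cells with neither. WT tumor cells with *Fgb* only had 1973 CPM of *Cited1* and those with *Upk3a* only 1408 CPM. *Prlr* ran the other way in WT tumor, with 1068 CPM in cells with both and 2172 CPM in cells with neither, and less so in PKA tumor, with 2195 and 2847 CPM. In WT tumor *Prlr* was low with *Upk3a* but not with *Fgb*, at 999 CPM in cells with *Upk3a* only and 2174 CPM in cells with *Fgb* only. PKA tumor had only 2 cells with *Upk3a* and no *Fgb*. *Foxa1*, a pioneer factor of luminal cells, differed little, with CPM of 393 and 397 in PKA tumor, and 471 and 413 in WT tumor. *Gpx3* ran opposite ways, with 627 and 413 CPM in PKA tumor, and 1163 and 2067 CPM in WT tumor. In WT tumor it had 3019 CPM in cells with *Fgb* only and 1318 CPM in cells with *Upk3a* only. *Pgr* had 82.3 and 92.1 CPM in PKA tumor, and 114 and 186 CPM in WT tumor, and *Esr1* had 41.2 and 70.6 CPM, and 61.6 and 51.3 CPM. *Prom1*, *Tbx3*, *Wnt4* and *Ly6a* were lower in cells with both in each tumor. *Prom1* had 64.0 and 177 CPM in PKA tumor, and 38.3 and 124 CPM in WT tumor. *Tbx3* had 32.0 and 62.2 CPM, and 24.1 and 69.7 CPM, and *Wnt4* 247 and 378 CPM, and 311 and 431 CPM. *Ly6a* had 2172 and 3020 CPM, and 4409 and 4513 CPM. Counting intervals overlapped for *Tbx3* in PKA tumor and *Ly6a* in WT tumor.

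Over the 16 groups of library and class with at least 50 cells, where points of a library share its depth and most differences are between Mature Luminal and other cells, *Upk3a* was the second likest of 9429 genes to *Fgb* (r = 0.95), after *Cib3* (0.96) and before *Ido1*, *Dmbt1* and *Cxcl15* (0.94 each). *Upk3a* was likest to *Ido1* (0.97), *Aoc1* (0.96), *Fgb* (0.95), *1810010D01Rik* (0.94) and *Crabp1* (0.91). *Fgg* was likest to *Mtpap* (0.95), *Khk* (0.93), *Ankrd44* (0.92), *Fgb* (0.91) and *Grb14* (0.90), and *Upk2* to *Alg14* (0.95), *Cab39l* (0.94), *Agps* (0.94), *Slc12a2* (0.94) and *Slc5a5* (0.93). *Upk2* and *Upk3a*, which shared fewer cells than the product in WT tumor, still had r = 0.85 over groups. Both were counted mainly in Mature Luminal cells in the tumors and PKA hyperplasia, whereas that class held 2 of 20 *Upk2* UMIs in WT hyperplasia. The part of class in this r was not tested.

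The partner genes of the uroplakins had few UMIs. *Upk1a*, the partner of *Upk2*, had 3 UMIs in Mature Luminal cells of PKA tumor, 5 in WT tumor, 1 in PKA hyperplasia and 0 in WT hyperplasia. *Upk1b*, the partner of *Upk3a*, had 1, 21, 0 and 1 UMIs, and *Upk3bl* 2, 1, 0 and 0. *Upk3b* was not analysed here. Of the fibrinogen relatives, *Fgl1* had 6, 20, 0 and 3 UMIs and *Fgl2* 1, 2, 0 and 0 UMIs. Only *Upk2* and *Upk3a* of the 5 uroplakin genes counted were therefore above 5 CPM in any Mature Luminal group.

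Markers of liver, bladder lining and platelets were sparse where the members were high. Of 6 hepatocyte markers with a row in any library, *Alb* had 0 UMIs in Mature Luminal cells of each library, and the 6 together had 3, 0, 3 and 0 UMIs in PKA tumor, WT tumor, PKA hyperplasia and WT hyperplasia. The 5 urothelial markers *Upk1a*, *Upk1b*, *Krt20*, *Snx31* and *Psca* summed to 7.68, 8.20, 6.58 and 2.60 CPM. Of 5 platelet markers with a row, *Pf4*, *Ppbp* and *Gp9* were at 0 in all 4 libraries, and the list summed to 14, 30, 20 and 5 UMIs. *Ptprc* and the 4 T and B cell markers were at 0. The fibroblast list summed to 30.0, 901, 120 and 609 CPM, nearly all of it *Dcn* (27.9, 900, 117 and 599 CPM), with *Col1a2* and *Col3a1* at 0 or 1 UMI. Levels of *Dcn* differed between the libraries, and its part in the results was not tested.

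Other genes of clotting, liver and bladder pathways were read from lists chosen with earlier results of these data known. Of 27 genes of coagulation and fibrinolysis, 10 had at least 10 UMIs over the Mature Luminal cells of both tumors, and 3 were at least 2-fold higher and 4 at least 2-fold lower in PKA tumor (median log2 ratio 0.11, beside 0.12 for all genes, of which 11.7% were 2-fold higher and 5.16% lower). *F3*, which encodes tissue factor, the starter of clotting, had 303 CPM in PKA tumor, against 1206 CPM in WT tumor (log2 ratio -1.99, -2.14 to -1.85), but 422 CPM in PKA hyperplasia and 130 CPM in WT hyperplasia (1.70, 1.26 to 2.16). *F13a1*, the A subunit of the enzyme that crosslinks fibrin, had 3 UMIs in PKA tumor and 253 in WT tumor, and 31 in PKA hyperplasia and 0 in WT hyperplasia. Both thus followed the order of *Fgb* and *Upk3a* at the 2 stages. *Serpine2*, an inhibitor of thrombin, had the opposite order, with 229 CPM in PKA tumor, against 57.2 CPM in WT tumor (2.00, 1.77 to 2.24), and 27.6 CPM in PKA hyperplasia and 161 CPM in WT hyperplasia (-2.55, -3.34 to -1.81). *Proc*, protein C, had log2 ratios of 0.64 in tumor and 1.27 in hyperplasia. In hyperplasia 7 genes of the list were measured, of which 4 were past 2-fold higher and 1 lower in PKA (median 1.21, beside -0.08 for all genes, of which 7.40% were 2-fold higher and 7.36% lower).

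Regulators known from liver fibrinogen synthesis mostly differed by less than 2-fold between genotypes, but 5 of 9 were past 2-fold between stages. Of 14, 9 were measured in the tumor comparison and 1 was past 2-fold higher, beside 11.7% of all genes. This was *Il6ra*, the interleukin-6 receptor gene, with 20.9 CPM in PKA tumor, against 9.42 CPM in WT tumor (1.15, 0.44 to 1.85). None was past 2-fold lower, beside 5.16%. *Stat3* gave a log2 ratio of 0.48 (0.31 to 0.65) in tumor, and *Socs3*, a feedback inhibitor that STAT3 induces, had 887 CPM in PKA tumor and 854 in WT tumor, and *Cebpb* 180 and 108 CPM. In the hyperplasia comparison, where *Fgb* and *Fgg* differed most between genotypes, none of 9 was past 2-fold. Of all genes there, 7.40% were past 2-fold higher and 7.36% lower, so nothing is read from the count of either comparison. *Socs3* had 296 CPM in PKA hyperplasia and 268 CPM in WT hyperplasia. Between stages 4 of 9 were past 2-fold higher and 1 lower in PKA tumor over PKA hyperplasia, beside 19.8% and 8.15% of genes, and likewise in WT tumor over WT hyperplasia, beside 19.9% and 17.5%. *Cebpb*, *Cebpd* and *Socs3* were higher in tumors of both genotypes, with log2 ratios of 3.93, 2.93 and 1.58 in PKA mice and 3.38, 1.43 and 1.67 in WT mice. *Il6st*, the shared receptor subunit of the interleukin-6 family, was lower in both (-1.64 and -1.30). Of 20 other liver secreted proteins, 3 were measured in the Mature Luminal cells of the tumors. The retinol binding protein gene *Rbp4* alone was past 2-fold lower in PKA tumor (log2 ratio -2.07), beside 5.16% of all genes. None was past 2-fold higher, beside 11.7%. *Hp* had 754 CPM in PKA tumor, against 1003 CPM in WT tumor (-0.41, -0.51 to -0.32), and 325 CPM in PKA hyperplasia and 174 CPM in WT hyperplasia (0.90, 0.50 to 1.31).

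Of 24 genes of urothelial differentiation and uroplakin traffic, 19 were measured in the tumor comparison, and 3 were past 2-fold higher and none lower in PKA tumor, beside 11.7% and 5.16% of all genes (median -0.02, beside 0.12 for all genes). The 3 were *Grhl3* (10.5 against 2.25 CPM), *Rxra* (38.4 against 18.6 CPM) and *Trp63* (29 against 2 UMIs). Urothelial transcription factors that luminal breast cells share were abundant and close to level: *Gata3* had 1071 CPM in PKA tumor, against 1266 CPM in WT tumor, and *Elf3* 256 and 330 CPM. *Rab27b*, which acts in uroplakin vesicle traffic in bladder, had 163 and 119 CPM in the tumors, and 101 CPM in PKA hyperplasia against 49.5 CPM in WT hyperplasia. Of 10 fibrinogen receptor genes, 6 were measured in the tumors, and 1, *Itga5*, was past 2-fold higher, beside 11.7% of all genes, with 25.1 CPM in PKA tumor, against 12.5 CPM in WT tumor (1.01, 0.37 to 1.63).

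Of 12 hormone receptor lineage genes, 10 were measured in the tumors and 2 were past 2-fold lower in PKA tumor, beside 5.16% of all genes, *Gpx3* (478 against 1923 CPM) and *Cited1* (716 against 1559 CPM). In hyperplasia *Cited1* was higher in PKA (1706 against 1023 CPM). *Tnfsf11*, which encodes RANKL, had 1 UMI in PKA hyperplasia and 53 in WT hyperplasia.

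Genes beside the members varied over a much narrower range than the members or had no UMIs. *Plrg1*, 5659 bases beyond *Fgb*, had 64.2 CPM in Mature Luminal cells of PKA tumor, 96.3 CPM in WT tumor, 28.9 CPM in PKA hyperplasia and 23.4 CPM in WT hyperplasia. *Dchs2* beyond it, and *Lrat* and *Rbm46* on the far side of *Fgg*, had 0 UMIs in all 4. Next to *Upk3a*, *5031439G07Rik* had 33.5, 51.0, 46.0 and 36.4 CPM, *Nup50* 43.3, 40.4, 30.3 and 41.7 CPM, and *Fam118a* 18.2, 29.5, 7.89 and 7.81 CPM. Next to *Upk2*, *Bcl9l* had 69.8, 69.9, 32.9 and 54.7 CPM and *Ccdc84* 18, 78, 6 and 5 UMIs, while *Foxr1* had 0 UMIs. *Smc1b* and *Cxcr5* had at most 3 UMIs in a library. The lincRNA *Gm30097* overlaps *Fgg* on the opposite strand, and no source used here says whether counting used strand, so reads from both cannot be told apart.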

How the data were processed

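Per the submitters' processing notes, reads went through Cell Ranger, the aligner STAR (2.5.3a) and the counter featureCounts (Subread 1.6.0), on GRCm38/mm10. No source used here names the gene annotation. The deposited values are raw UMI counts for each gene in each barcode of 10x 3' libraries. The authors' tables give UMI and gene counts per cell, equal in every annotated cell to those summed here, the deposited fraction of mitochondrial UMIs, and a class, assigned with Monocle2 per the series design. Sorting by FACS is named without its gate. Each table lists only genes with a UMI in that library, so a gene listed elsewhere but not there was taken as 0, and genes in no table were not analysed. Barcodes without an annotation were left out. Doublets were neither called nor removed.

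The members and gene lists were chosen with earlier results of these data known. UMIs were summed by library and class, scaled to CPM, and given with exact Poisson intervals; shares have Clopper-Pearson intervals, and log2 ratios exact conditional binomial intervals, all at 95%. Since each group is a single library, no test was run. A ratio at least 2-fold, with 0.5 UMIs added, counted as past the fold among genes of at least 10 UMIs in both libraries together. A count of 0 allows 3 UMIs. Cells were thinned to 2000 UMIs for shares. PCR duplicates are removed by UMIs, and intervals cover counting error only. Named genes were the members, relatives, list members, the 2 nearest coding genes on each side, and the likest 5 over groups (at least 50 cells, 500 UMIs, log2(CPM + 1)) and 10 over cells. The ratio step was tested on simulated counts.

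Alternatives were TMM factors, totals that leave out milk protein, ribosomal protein and mitochondrial genes, a mean over cells of their CPM, stricter cell filters, cells with most UMIs left out, all barcodes, equal class weights, other thinning and other minimums. Promoters and their motif shares came from RefSeq windows, of which 3 of 4 members matched. Tools were edgeR 4.0.16 in R 4.3.3 and, in Python 3.11.15, matplotlib 3.10.9, pandas 2.3.3, SciPy 1.17.1 and NumPy 2.4.6.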

Additional observations from a re-analysis of the deposited data

Results flagged for a closer look

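The PKA over WT ratio had opposite signs in tumor and in hyperplasia for most members, and the difference between the stages was not tested. Over all annotated cells the tumor log2 ratios were -1.70 for *Fgb*, -0.41 for *Fgg*, -4.46 for *Upk3a* and -1.58 for *Upk2*, whereas in hyperplasia they were 5.44, 3.66, 7.47 and 2.93 in the same order. Within Mature Luminal cells the tumor ratios were -0.48 for *Fgb*, -3.25 for *Upk3a* and -0.40 for *Upk2*, against 4.26, 6.36 and 4.86 in hyperplasia. *Fgg* was higher in PKA at both stages within that class (0.68 in tumor, 3.66 in hyperplasia).

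The members also had UMIs in barcodes without an annotation, which enter no comparison above and numbered 296 in PKA tumor, 619 in WT tumor, 1040 in PKA hyperplasia and 1371 in WT hyperplasia. *Fgb* had 108 such UMIs in WT tumor and 27 in PKA hyperplasia. *Fgg* had 24 in PKA tumor, 37 in WT tumor and 26 in PKA hyperplasia. *Upk3a* had 129 in WT tumor and 123 in PKA hyperplasia, and 104 of those 123 came from 1 barcode. *Upk2* had 15 in WT tumor and 9 in PKA hyperplasia.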

How the results depend on the processing

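No paired analysis was possible because each group is 1 library, and for the same reason no library could be left out. Of 192 recomputed log2 ratios, 162 stayed within the counting interval, 29 moved outside it and 1 reversed, and 190 kept their direction. The other change of sign was *Upk3a* in PKA tumor over PKA hyperplasia over all cells, which was 0.11 without the 5% of cells with most UMIs, inside its interval.

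Equal weight for each class reversed *Fgg* in PKA over WT tumor to 0.68, and gave -0.49 for *Fgb*, -3.24 for *Upk3a* and -0.41 for *Upk2*. In PKA over WT hyperplasia it gave 4.30 for *Fgb* and 4.06 for *Upk2*, in WT tumor over WT hyperplasia 6.51 for *Fgb*, 5.19 for *Fgg* and 9.40 for *Upk3a*, and in PKA tumor over PKA hyperplasia 2.27 for *Fgg*. The mean of each cell's CPM gave, in PKA over WT tumor, -1.87 for *Fgb*, -0.62 for *Fgg* and -4.79 for *Upk3a* over all cells, and -0.56, 0.57 and -3.48 in Mature Luminal cells. In PKA tumor over PKA hyperplasia over all cells it gave 1.52, 2.21 and -0.52. TMM factors gave -0.68 for *Fgb*, 0.49 for *Fgg* and -3.44 for *Upk3a* in Mature Luminal cells of PKA over WT tumor, and 1.68 and 2.25 for *Fgb* and *Fgg* in PKA tumor over PKA hyperplasia over all cells. Without the 5% of cells with most UMIs, *Fgb* in PKA over WT tumor was -1.58 over all cells and -0.39 in Mature Luminal cells, and in PKA tumor over PKA hyperplasia *Fgb* was 2.08 and *Fgg* 2.80 over all cells and *Fgg* 2.71 in Mature Luminal cells. All barcodes together gave -0.69 for *Upk3a* in PKA tumor over PKA hyperplasia. The cause of these shifts was not tested.

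Shares of Mature Luminal cells of WT tumor followed the depth. Thinning to 1000 UMIs, to 4000 UMIs and not at all gave 28.9%, 41.2% and 41.6% for *Fgb*, 34.6%, 54.5% and 58.0% for *Fgg*, 25.1%, 35.3% and 37.5% for *Upk3a*, and 7.68%, 23.8% and 27.6% for *Upk2*. Cells with both genes were 31.8% at 4000 UMIs and 33.7% without thinning for *Fgb* and *Fgg*, 21.2% and 23.3% for *Fgb* and *Upk3a*, 9.82% and 12.4% for *Fgb* and *Upk2*, 24.1% and 27.3% for *Fgg* and *Upk3a*, 10.5% and 13.6% for *Fgg* and *Upk2*, and 4.84% and 6.19% for *Upk3a* and *Upk2*. The odds ratio of *Upk3a* with *Upk2* was 0.259 at 2000 UMIs, 0.384 at 4000 UMIs and 0.379 without thinning. Genes past 2-fold in PKA over WT tumor numbered 3365, beside 10369 without a minimum count, 1216 with at least 100 UMIs and 3362 under TMM.

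With 1 library per group, differences between mice, litters and preparations are not measured. Tumor and hyperplasia also differ in age, dissociation and depth. WT hyperplasia had 116 Mature Luminal cells, so ratios against its 1 *Upk3a* UMI and 2 *Upk2* UMIs have wide intervals. Classes are the authors', and doublets were not removed.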
